A study of Mus musculus with 16 samples.

Results

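The genes described here encode enzymes by which supporting (sustentacular) cells of the mouse olfactory epithelium transform foreign chemicals and odorants. A fixed list of 8 genes was used, and each was represented by the probe set annotated to its symbol with the highest mean over the 16 arrays. Of the 8, 6 were measured, among 19505 genes in all: Cyp2g1, Cyp2a5, Cyp2f2, Gstm1, Cbr2 and Aldh1a1. Each of these 6 had 1 probe set, so no choice among probe sets arose. Ugt2a1, which attaches glucuronic acid to odorants and steroids, and Por, the reductase that passes electrons to cytochromes P450, had no probe set under their names in the annotation used and are not analysed here.

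The study sorted cells from the olfactory mucosa of S100a5-tauGFP mice of both sexes, aged 7 to 12 weeks. All 4 groups carried this reporter, in which green fluorescent protein (GFP) is made from the S100a5 locus, a gene that olfactory sensory neurons express in step with recent activity. The 24 mice formed 8 pools of 3, each kept for 40 h in a chamber with clean air at 3.1 L per min. From 26 h, 4 pools received 10 s pulses of cigarette smoke odour every 20 min and 4 received pulses of vehicle (filtered air). Every pool gave a GFP+ and a GFP- fraction, and 50 to 100 ng of RNA from each went on a Clariom S array, so that 4 groups of 4 arrays resulted: smoke GFP+, smoke GFP-, vehicle GFP+ and vehicle GFP-. The text deposited with the series names the odour bourgeonal, but the title and the labels of all samples name cigarette smoke, which is used here. The reporter marks neurons, so supporting cells belong by design to the GFP- fraction, and a pool of 3 mice counts as 1 sample.

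Supporting cells span the olfactory epithelium, wrap the dendrites of the sensory neurons and hold dense smooth endoplasmic reticulum rich in cytochromes P450. Biotransformation there runs in steps. Phase I enzymes such as P450s, carbonyl reductases and aldehyde dehydrogenases oxidise or reduce a compound, and phase II enzymes such as glutathione S-transferases and glucuronosyltransferases attach a water-soluble group to it. In the nose these enzymes clear odorants and also turn some inhaled compounds into reactive products that injure the olfactory mucosa.

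Cyp2g1, Cyp2a5 and Cyp2f2 lie in a cluster of Cyp2 genes on mouse chromosome 7, in which Cyp2g1 and Cyp2a5 are immediate neighbours in gene order. The sequences before the transcription starts are shown because the first 5 enzymes varied together from array to array (below), and these are the windows in which shared motifs were looked for. That co-variation was not limited to the enzymes, and whether promoters have a part in it was not tested. Of the 8 listed genes, all but Cyp2g1 (7) had a RefSeq promoter entry (build GRCm38.p6). The 250 bases before the annotated start are given 5′ to 3′ on the gene's strand, with motif matches in capitals and all else in lower case.
Cyp2a5 (GRCm38.p6, chr7:26835089-26835338, plus strand): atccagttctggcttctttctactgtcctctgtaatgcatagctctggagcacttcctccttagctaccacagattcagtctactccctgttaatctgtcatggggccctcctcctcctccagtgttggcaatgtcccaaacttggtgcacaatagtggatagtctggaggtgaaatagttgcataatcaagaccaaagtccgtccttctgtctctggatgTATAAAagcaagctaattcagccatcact
Cyp2f2 (GRCm38.p6, chr7:27119705-27119954, plus strand): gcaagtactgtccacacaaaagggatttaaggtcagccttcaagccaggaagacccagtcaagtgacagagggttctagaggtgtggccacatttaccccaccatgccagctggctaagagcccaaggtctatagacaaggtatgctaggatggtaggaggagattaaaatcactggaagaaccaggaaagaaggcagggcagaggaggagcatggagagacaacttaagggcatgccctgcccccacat
Gstm1 (GRCm38.p6, chr3:108017974-108018223, minus strand): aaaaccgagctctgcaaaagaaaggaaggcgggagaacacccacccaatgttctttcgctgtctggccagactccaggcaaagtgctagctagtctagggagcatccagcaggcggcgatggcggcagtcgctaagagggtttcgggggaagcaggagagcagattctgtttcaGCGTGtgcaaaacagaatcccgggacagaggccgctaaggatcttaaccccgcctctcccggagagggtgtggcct
Cbr2 (GRCm38.p6, chr11:120732022-120732271, minus strand): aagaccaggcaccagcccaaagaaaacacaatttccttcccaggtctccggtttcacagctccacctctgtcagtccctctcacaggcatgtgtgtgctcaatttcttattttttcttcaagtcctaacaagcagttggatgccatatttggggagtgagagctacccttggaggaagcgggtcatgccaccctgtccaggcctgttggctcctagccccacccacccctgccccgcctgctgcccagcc

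The capitals mark TATAAA, the TATA box, which begins at -29 before Cyp2a5, and GCGTG, the core that the aryl hydrocarbon receptor binds, which begins at -76 before Gstm1. Gstm1 has a further annotated start, whose window overlaps the one shown and is not printed; it held TATAAA at -30 and the same GCGTG at -231. The windows of Cyp2f2 and Cbr2 held no match. Both strands were searched for these 2 motifs, for the antioxidant response element TGACNNNGC and for the nuclear factor I palindrome, and no matches overlapped in the windows shown. Over 32851 RefSeq windows of the same 250 bases, TATAAA was found in 12.4%, GCGTG in 28.2%, TGACNNNGC in 10.2% and the palindrome in 0.0365%. No motif of the 4 was common to the 4 windows shown, and TATAAA near -30 was common to Cyp2a5 and the further Gstm1 start. These are matches of letters, and no binding was measured.

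All values below are the deposited log2 values. The 6 probe sets lay above the level of unexpressed genes, taken as the 95th percentile of 319 vomeronasal receptors (6.14 to 6.78 per array), on 16 of 16 arrays, GFP+ arrays included. Array medians were 7.87 to 7.96 in GFP+ and 8.19 to 8.29 in GFP- cells, and within a group arrays correlated across genes at 0.988 to 0.995. Values above 16, more than a 16-bit scanner can give in log2, made up 0.946% of all values and 4 of the 16 values of Cyp2g1, so folds may be stretched. S100a5 was 1.21 higher in GFP+ than in GFP- cells of vehicle pools and 1.15 higher in smoke pools, as labelled. The mean of Y-linked genes followed the replicate number in both exposures. It was 4.13 to 6.57 in the replicate 1 pools, 9.99 to 10.7 in pools 2 and 4, and 11.2 to 11.3 in the replicate 3 pools. In smoke pool 1 it was 6.57 in GFP- and 4.26 in GFP+ cells, and why these fractions differed was not tested. The p-values come from limma on all genes with Benjamini-Hochberg adjustment, were called at 0.05, and measure the spread between pools of mice.

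In vehicle pools, 5 of the 6 enzymes were lower in GFP+ than in GFP- cells, by 1.75-fold for Cyp2g1 to 3.03-fold for Aldh1a1, while 15.4% of all genes were called lower and 24.2% higher (39.6% together). The exception was Cbr2, at 1.37-fold lower with an adjusted p of 0.181. The median difference of the 6 was -0.96, against 0.17 over all genes. In smoke pools 2 of the 6, Gstm1 and Aldh1a1, were lower in GFP+ cells, where 14.4% of genes were called lower and 18.3% higher (32.7% together), and the median was -0.45 against 0.15. Each of the 6 differences was less negative in smoke than in vehicle pools, and that change was tested by itself further on. In bulk samples, fewer cells of a type and less RNA per cell cannot be told apart. With the array mean of 16 supporting-cell markers as a covariate, whose ranges in the 2 fractions do not overlap, none of the 6 was called in vehicle pools and the median turned to 1.00. In smoke pools that fit called Cyp2f2 (1.63) and Cbr2 (2.16) higher in GFP+ cells, and the median turned to 1.04.

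Cyp2g1, a P450 found almost solely in olfactory mucosa, measured 15.90, 15.79, 16.11 and 15.98 in the GFP- cells of vehicle pools 1 to 4 and 15.08, 15.00, 15.14 and 15.36 in their GFP+ cells. In smoke pools 1 to 4 it measured 15.98, 16.06, 15.66 and 16.23 in GFP- cells and 15.17, 15.85, 15.21 and 16.02 in GFP+ cells. The fractions did not overlap in vehicle pools, whereas in smoke pools the GFP+ values of pools 2 and 4 reached into the GFP- range. The vehicle difference was -0.81 (SE 0.18, adjusted p = 0.00211, limma), and the smoke difference was -0.42 (adjusted p = 0.0865). The smoke difference passed the test with the pool as a block (adjusted p = 0.0265) and without smoke GFP+ array 4 (adjusted p = 0.0216).

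Cyp2a5, which oxidises coumarin and nicotine and activates several nasal toxicants, measured 15.21, 15.38, 15.76 and 15.45 in vehicle GFP- cells and 14.27, 14.22, 14.53 and 14.56 in vehicle GFP+ cells. In smoke pools it measured 15.26, 15.57, 15.07 and 15.74 in GFP- cells and 14.38, 15.22, 14.48 and 15.64 in GFP+ cells. Again pools 2 and 4 gave the high GFP+ values among smoke pools, and only in vehicle pools were the fractions apart. The vehicle difference was -1.05 (SE 0.24, adjusted p = 0.00209, 2.07-fold), and the smoke difference was -0.48 (adjusted p = 0.129, against 0.0214 with the pool as a block and 0.0177 without smoke GFP+ array 4). Its probe set may also take up transcripts of Cyp2a4, a near-identical gene, so the 2 cannot be cleanly told apart.

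Cyp2f2, known for activating naphthalene in airway and nose, measured 14.12, 13.75, 14.31 and 14.09 in vehicle GFP- cells and 13.27, 12.82, 13.31 and 13.41 in vehicle GFP+ cells. In smoke pools it measured 13.75, 13.70, 13.68 and 14.26 in GFP- cells and 12.98, 13.96, 13.33 and 14.37 in GFP+ cells. In smoke pools 2 and 4 the GFP+ value was above the GFP- value of the same pool. The vehicle difference was -0.87 (SE 0.25, adjusted p = 0.0106), and centring each array on its median took it to -0.52, where it no longer passed (adjusted p = 0.0631). The smoke difference was -0.19 (adjusted p = 0.587), and turned to 0.14 with that centring.

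Gstm1, a glutathione S-transferase of phase II, measured 14.92, 14.77, 15.23 and 14.96 in vehicle GFP- cells and 13.68, 13.66, 13.94 and 14.01 in vehicle GFP+ cells. In smoke pools it measured 14.74, 15.04, 14.97 and 15.31 in GFP- cells and 13.89, 14.43, 14.17 and 15.10 in GFP+ cells. The smoke GFP+ value of pool 4 was the one that entered the GFP- range. The vehicle difference was -1.15 (SE 0.21, adjusted p = 0.000309, 2.22-fold) and the smoke difference -0.62 (adjusted p = 0.0302). The smoke call was lost in 6 of the 16 fits that each left out 1 array, with adjusted p of 0.104, 0.0525 and 0.0831 without smoke GFP+ 1, 2 and 3, and of 0.0628, 0.0547 and 0.0823 without smoke GFP- 2, 3 and 4. It was also lost with arrays centred on their medians (-0.29, adjusted p = 0.197).

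Cbr2, a carbonyl reductase that acts on aldehydes, ketones and quinones, measured 14.28, 14.10, 15.09 and 14.68 in vehicle GFP- cells and 13.84, 13.88, 14.15 and 14.44 in vehicle GFP+ cells. In smoke pools it measured 14.13, 14.28, 14.21 and 14.90 in GFP- cells and 14.25, 14.67, 14.42 and 15.49 in GFP+ cells. The fractions overlapped under both exposures, yet within each pool the order was fixed: GFP+ was lower in 4 of 4 vehicle pools and higher in 4 of 4 smoke pools. The vehicle difference was -0.46 (SE 0.26, adjusted p = 0.181, or 0.0246 with the pool as a block). The smoke difference was 0.33 (adjusted p = 0.358), and 0.65 with arrays centred on their medians (adjusted p = 0.0378).

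Aldh1a1, an aldehyde dehydrogenase that also makes retinoic acid from retinaldehyde, measured 9.78, 9.34, 9.77 and 9.71 in vehicle GFP- cells and 8.27, 7.69, 8.02 and 8.22 in vehicle GFP+ cells. In smoke pools it measured 9.19, 9.34, 9.86 and 8.95 in GFP- cells and 7.73, 8.13, 8.87 and 8.59 in GFP+ cells. It was the one enzyme of the 6 whose fractions did not overlap under either exposure. For comparison, 15.1% of all genes were lower without overlap in vehicle pools, where 5 of the 6 enzymes were, and 13.5% in smoke pools. The vehicle difference was -1.60 (SE 0.23, adjusted p = 3.65e-05), and in smoke pools the level was 2.00-fold lower (adjusted p = 0.00326). Both calls were kept in 16 of 16 fits that left out 1 array.

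**Figure D1:**
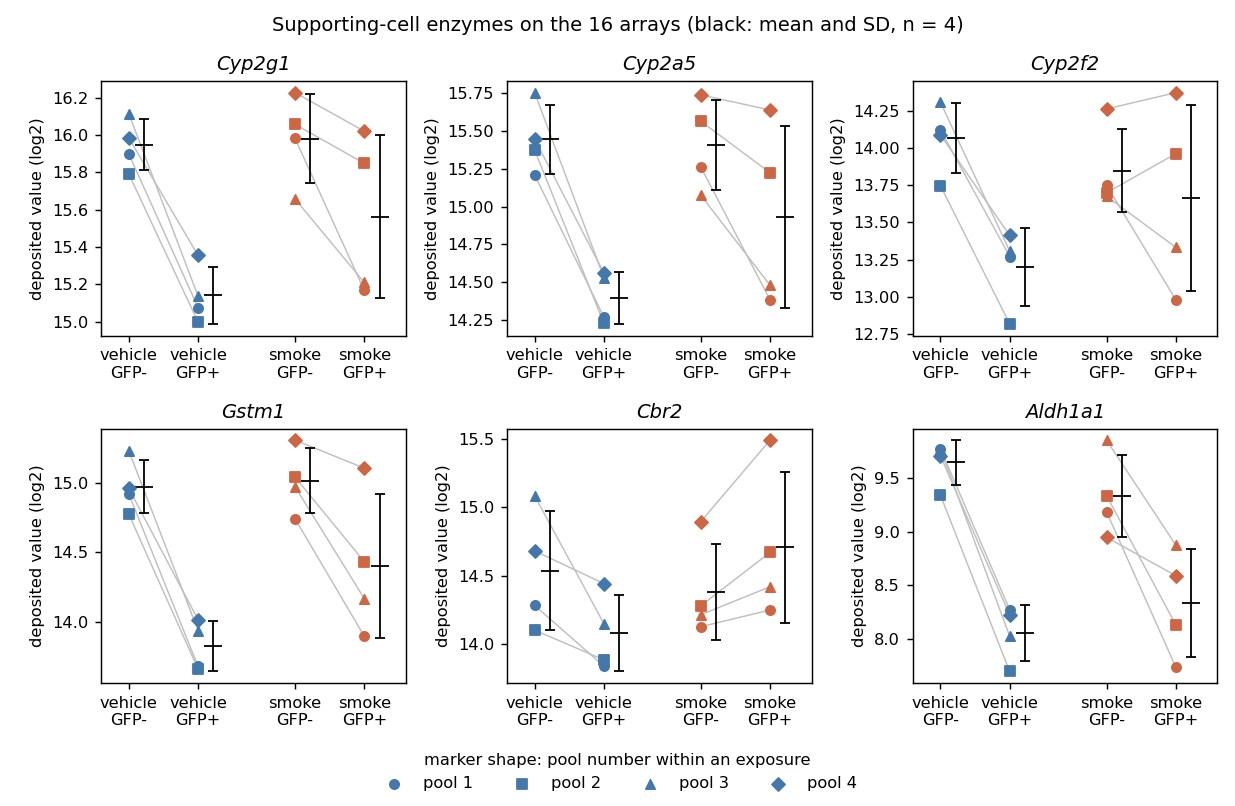
Deposited log2 value (vertical axis) of each of the 6 enzymes on every array, by group of 4 pools; marker shapes are pools, grey lines join the fractions of a pool, and black marks are the mean and SD (n = 4). The vehicle GFP+ values all lie below the GFP- values except for Cbr2, and smoke GFP+ pools 2 and 4 lie high for all but Aldh1a1.

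Group means with their SD (n = 4) put the 4 groups in order. For Cyp2g1 they were 15.98 (SD 0.24) in smoke GFP-, 15.95 (0.14) in vehicle GFP-, 15.56 (0.44) in smoke GFP+ and 15.14 (0.15) in vehicle GFP+ cells. For Gstm1 the same order gave 15.01 (0.23), 14.97 (0.19), 14.40 (0.52) and 13.82 (0.18). For Cyp2a5 the order was vehicle GFP- at 15.45 (0.23), smoke GFP- at 15.41 (0.30), smoke GFP+ at 14.93 (0.60) and vehicle GFP+ at 14.39 (0.17). Cyp2f2 followed it, at 14.07 (0.23), 13.85 (0.28), 13.66 (0.63) and 13.20 (0.26), and so did Aldh1a1, at 9.65 (0.21), 9.33 (0.38), 8.33 (0.50) and 8.05 (0.26). Cbr2 alone began with smoke GFP+, at 14.71 (0.55), followed by vehicle GFP- at 14.54 (0.44), smoke GFP- at 14.38 (0.35) and vehicle GFP+ at 14.08 (0.28). The lowest mean was that of vehicle GFP+ cells for each of the 6 enzymes. Smoke and vehicle means of the same fraction, which are neighbours in 5 of the 6 orders, did not differ past the threshold for any enzyme. The SD was largest in smoke GFP+ cells for each of the 6.

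Because both fractions of a pool come from the same mice, the gap between them (GFP+ minus GFP-) can be read pool by pool. The gap was below 0 in 8 of 8 pools for Cyp2g1, Cyp2a5, Gstm1 and Aldh1a1 (exact sign-flip permutation test, two-sided p = 0.00781, the smallest that 8 pools allow), as it was for 14.7% of all genes. It was below 0 in 6 of 8 pools for Cyp2f2 and in 4 of 8 for Cbr2. With the pool as a fixed block in limma, 6 of 6 enzymes were lower in GFP+ cells in vehicle pools, where 40.6% of genes were called in either direction. In smoke pools that fit called 4 of 6 lower, with 33.1% of genes called. The enzymes thereby added were Cbr2 in vehicle and Cyp2g1 and Cyp2a5 in smoke pools. With the pool as a random block the counts were 5 and 2, as without a block.

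The enzymes did not share 1 measured gap. Over the 8 pools, 15 pairs of enzymes were compared by exact sign-flip permutation tests with p-values adjusted over the 15. The gap of Aldh1a1 was lower than that of each of the other 5 in 8 of 8 pools, and the gap of Cbr2 was higher than that of each of the other 5 in 8 of 8 (exact adjusted p = 0.0107 each). The gap of Cyp2a5 was lower than that of its neighbour Cyp2g1 in 7 of 8 pools (exact adjusted p = 0.0270), and that of Gstm1 lower than that of Cyp2g1 in 7 of 8 (exact adjusted p = 0.0195). The gap of Cyp2f2 was higher than those of Cyp2a5 and Gstm1 in 8 of 8 pools (exact adjusted p = 0.0107 each). Cyp2g1 and Cyp2f2 did not differ past the threshold (exact adjusted p = 0.352), nor did Cyp2a5 and Gstm1 (exact adjusted p = 0.0502). Each log2 gap is taken within 1 probe set, so fixed offsets between probe sets drop out. Probe sets may still differ in how far they stretch or compress a fold, which was not tested.

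The gap was nearer to 0, or higher, in smoke than in vehicle pools. For Gstm1 it was -1.24, -1.11, -1.29 and -0.94 in vehicle pools and -0.85, -0.61, -0.81 and -0.20 in smoke pools. For Aldh1a1 it was -1.51, -1.65, -1.75 and -1.49 in vehicle pools and -1.45, -1.21, -0.98 and -0.36 in smoke pools. The gap was highest in smoke pool 4 for both enzymes. For Cbr2 it was -0.44, -0.22, -0.94 and -0.24 in vehicle pools and 0.12, 0.39, 0.20 and 0.60 in smoke pools. For Cyp2a5 it was -0.94, -1.15, -1.23 and -0.89 in vehicle pools and -0.88, -0.34, -0.60 and -0.10 in smoke pools. Every smoke gap lay above every vehicle gap for these 4 enzymes, narrowly so for Cyp2a5 and Aldh1a1 in smoke pool 1 (exact permutation test, two-sided p = 0.0286 each, the smallest that 4 pools against 4 allow). This held for 2.0% of all genes. Pool gaps were read for only some of the 16 supporting-cell markers, namely Sec14l3, Ermn, Krt8, Krt18, Cdh1 and Ezr. Among those read, the same separation held for Sec14l3, Ermn and Krt18 (exact p = 0.0286 each). Their mean gaps were higher in smoke than in vehicle pools by 1.03, 0.61 and 0.63. The gaps overlapped for the markers Krt8 (exact p = 0.514), Cdh1 (exact p = 0.457) and Ezr (exact p = 0.114). In limma, the same shift had a median of 0.17 over the 16 supporting-cell markers, with 3 below 0. Those 3 were Notch2 at -0.44, Cldn3 at -0.10 and Slc12a2 at -0.07, and none of them was read pool by pool. The median was 0.47 for Bowman's gland, 0.30 for endothelial and stromal, 0.27 for immune and 0.25 for microvillar and ionocyte genes. It was -0.07 for mature neuron and -0.08 for respiratory genes, against -0.009 over all genes. No gene of these lists passed. The shift was thus not limited to the enzymes or to supporting-cell markers, and its cause was not tested. The vehicle and smoke gaps overlapped for Cyp2g1 (exact p = 0.0857) and Cyp2f2 (exact p = 0.0571). A gap that was below 0 in all vehicle pools and above 0 in all smoke pools, as for Cbr2, was found in 0.22% of genes.

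**Figure D2:**
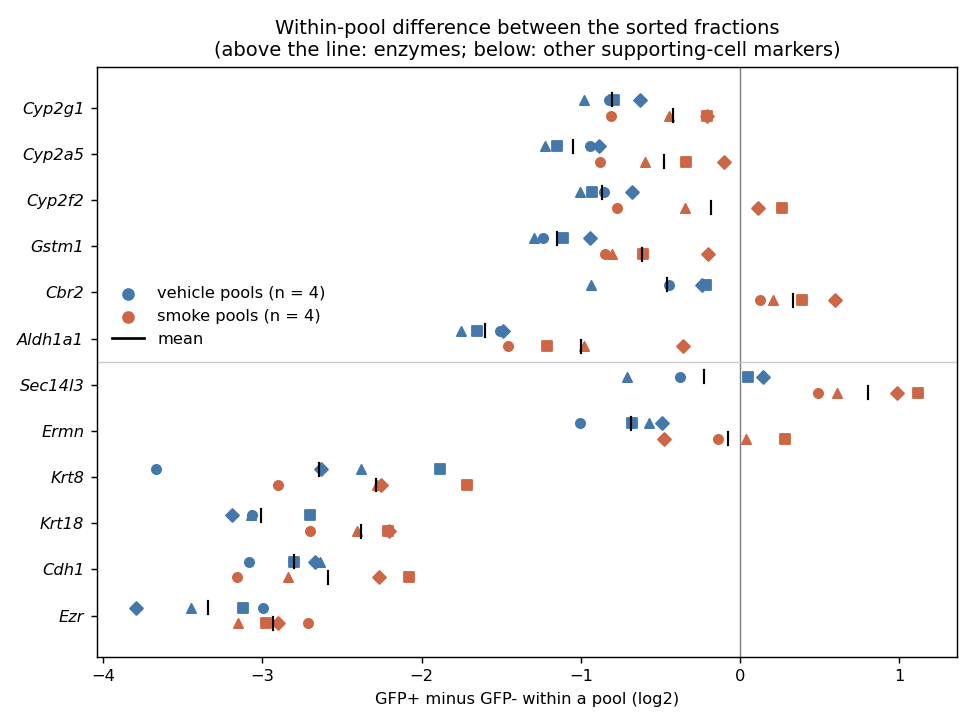
Difference between the fractions of a pool, GFP+ minus GFP- (log2, horizontal axis) for each enzyme and, under the grey line, 6 supporting-cell markers; points are vehicle and smoke pools (4 each) and black ticks their means. Cbr2 lies below 0 in the 4 vehicle pools and above 0 in the 4 smoke pools, and Aldh1a1 lies lowest of the 6 enzymes in every pool.

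In limma, the smoke effect in GFP+ cells minus that in GFP- cells was 0.39 for Cyp2g1, 0.57 for Cyp2a5, 0.68 for Cyp2f2, 0.53 for Gstm1, 0.79 for Cbr2 and 0.60 for Aldh1a1. None of the 6 passed the all-gene threshold (adjusted p = 0.860 to 0.908) or had an unadjusted p under 0.05, while 34 genes, 0.174%, passed and 1114 had such an unadjusted p. The 95% interval for Cbr2 ran from -0.01 to 1.58. The limma fit treats the 2 fractions of a pool as separate samples, and a fixed pool block left the count of enzymes called at 0.

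The smoke effect itself was asked within each fraction. In GFP+ cells all 6 enzymes had higher means in smoke than in vehicle pools, by 0.42 for Cyp2g1 (95% interval 0.04 to 0.80), 0.54 for Cyp2a5 (0.04 to 1.04), 0.46 for Cyp2f2 (-0.06 to 0.98), 0.58 for Gstm1 (0.14 to 1.01), 0.63 for Cbr2 (0.07 to 1.19) and 0.28 for Aldh1a1 (-0.21 to 0.77). None passed the limma test, with an adjusted p of 0.864 for Gstm1 and 0.999 for the others, while 21 genes did (0.108%). At an unadjusted p under 0.05 there were 4 of the 6 and 936 of all genes. The median of the 6 was 0.50, against -0.004 over all genes, and the 6 lay among the 0.718% to 6.44% of genes with the largest positive differences. The intervals reach up to 1.19, so the missed threshold does not show equal levels.

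The excess in GFP+ cells lay mostly in 2 of the 4 smoke pools. In smoke pools 2 and 4 the GFP+ value exceeded the vehicle mean by 0.79 for Cyp2g1, 1.04 for Cyp2a5, 0.97 for Cyp2f2, 0.95 for Gstm1 and 1.00 for Cbr2, but by 0.31 for Aldh1a1. In smoke pools 1 and 3 the same excess was 0.05, 0.03, -0.05, 0.21 and 0.26 for the first 5 enzymes and 0.25 for Aldh1a1. The GFP+ mean of the 16 supporting-cell markers was 9.65 and 9.75 in smoke pools 2 and 4, against 9.26 and 9.38 in pools 1 and 3. Sec14l3, a lipid-transfer protein gene of supporting cells, exceeded its vehicle mean by 1.03 in pools 2 and 4 (0.25 in pools 1 and 3). Ermn exceeded its own by 0.62 (-0.03 in pools 1 and 3). Not every marker followed, since Ezr was highest in smoke pool 3, at 9.97, against 9.74 and 9.60 in pools 2 and 4. Pools 2 and 4 were singled out after their values were seen, and without them the smoke difference of the 6 had a median of 0.13. Their Y-linked mean lay between those of pools 1 and 3, as it did in vehicle pools. Whether that level has a part in the excess was not tested. With the array mean of the 16 supporting-cell markers as a covariate, the GFP+ smoke differences were 0.20 for Cyp2g1, 0.23 for Cyp2a5, 0.12 for Cyp2f2, 0.29 for Gstm1, 0.28 for Cbr2 and 0.20 for Aldh1a1, with a median of 0.21. With the mean of Sec14l3 and Ermn alone, 2 markers of that list, as a covariate added after seeing the data, they were 0.11, 0.12, 0.01, 0.21, 0.12 and 0.27 in the same order, with a median of 0.12.

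In GFP- cells, the fraction that holds the supporting cells by design, the smoke differences were 0.03 for Cyp2g1, -0.04 for Cyp2a5, -0.22 for Cyp2f2, 0.04 for Gstm1, -0.16 for Cbr2 and -0.32 for Aldh1a1. None of the 6 passed (limma, adjusted p = 0.916 to 0.992), none had an unadjusted p under 0.05, and 25 genes of all, 0.128%, passed. The median was -0.10. The ranges of smoke and vehicle GFP- values overlapped for each enzyme.

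**Figure D3:**
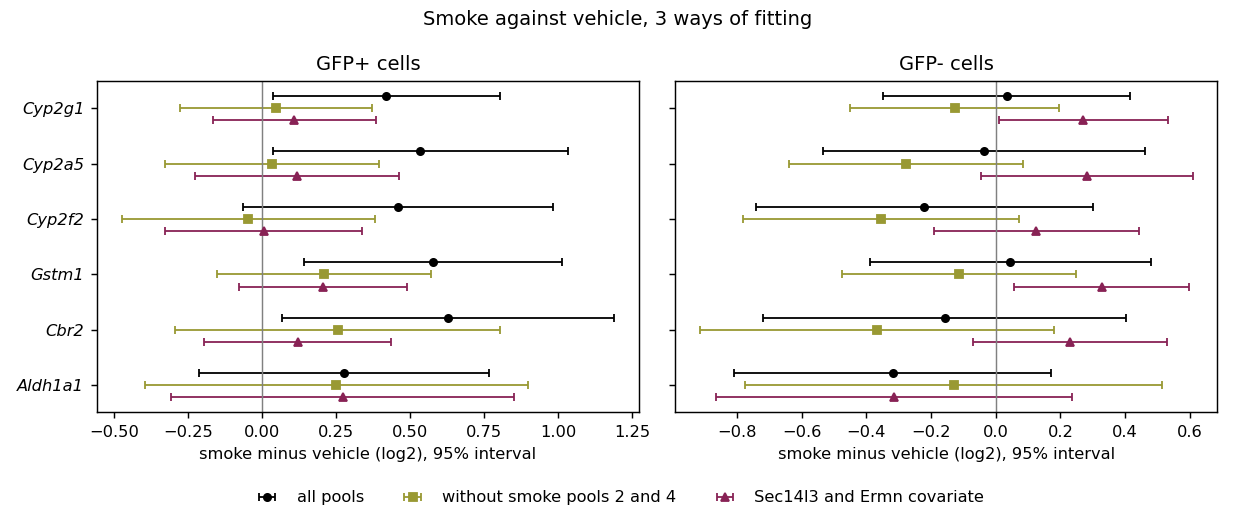
Smoke minus vehicle difference (log2, horizontal axis) of each of the 6 enzymes with its 95% interval, in GFP+ and GFP- cells, with all pools, without smoke pools 2 and 4, and with Sec14l3 and Ermn as covariate. In GFP+ cells the 6 points lie at 0.28 to 0.63 with all pools and at -0.05 to 0.26 without smoke pools 2 and 4.

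The first 5 enzymes varied together from array to array. With group means taken off, Pearson's r between any 2 of Cyp2g1, Cyp2a5, Cyp2f2, Gstm1 and Cbr2 was 0.819 to 0.954 over the 16 arrays, which share pools and array scaling. Aldh1a1 stood apart, at -0.018 to 0.295 with the other 5. The same 5 enzymes correlated with Sec14l3 at 0.82 to 0.976, highest for Cbr2, and with Ermn at 0.651 to 0.741. These are descriptions over arrays of 8 pools, and cell makeup, pool and processing were not separated.

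**Figure D4:**
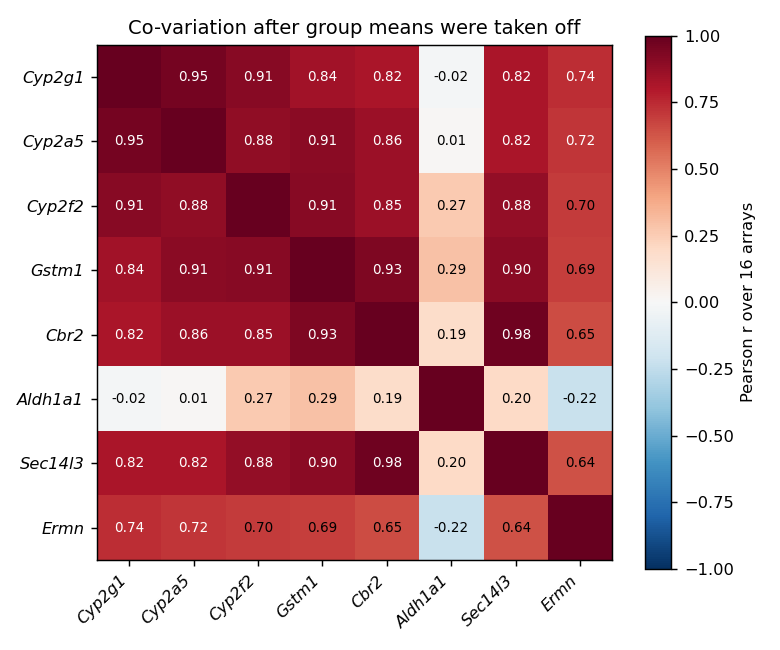
Pearson correlation (colour and printed value) between the 6 enzymes and with supporting-cell markers over 16 arrays, after the mean of each group was taken off. The 5 enzymes other than Aldh1a1 form a block of 0.819 to 0.954, and Aldh1a1 reaches at most 0.295 with them.

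By likeness to the mean of the 6 enzymes over the 16 arrays, among 13428 candidate genes, the 10 nearest were Sult1c1 (r 0.961), Galm (0.942), Zdhhc20 (0.941), Cyp2a4 (0.924), Olfr1 (0.917), Gsta3 (0.915), Aqp3 (0.912), Dcn (0.911), H1f2 (0.902) and Cyp1a2 (0.902). With group means taken off they were Dcn (0.962), Pon1 (0.94), Aqp3 (0.937), Sec14l3 (0.92), Xrcc3 (0.918), Cibar1 (0.914), Zfp943 (0.903), Ap4m1 (0.901), Sult1c1 (0.897) and Snapc3 (0.889). Sult1c1, a sulfotransferase, Aqp3, a water and glycerol channel, and Dcn, the matrix proteoglycan decorin, appeared in both lists. The first ordering includes the gap between fractions and the second does not. Cyp2a5 is part of the mean used, and its probe set may take up Cyp2a4 transcripts, so Cyp2a4 may not be a separate likeness.

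The supporting-cell marker list, which holds none of the 6 enzymes, was measured for 16 of 17 genes. Its array mean was 10.3 to 10.6 in vehicle GFP- and 9.25 to 9.39 in vehicle GFP+ cells. In smoke pools it was 10.2 to 10.5 in GFP- and 9.26 to 9.75 in GFP+ cells. In vehicle pools 11 of the 16 were lower in GFP+ cells and none higher, with a median of -0.81, and in smoke pools 8 were lower and 1 higher, with a median of -0.38. The 1 that was higher was Sec14l3, at 0.80 (adjusted p = 0.0309), against -0.23 in vehicle pools. Krt18, a keratin of the simple epithelia, was lower in GFP+ cells by far more than the enzymes, at -3.01 in vehicle and -2.38 in smoke pools, and Ezr, a membrane linker, at -3.34 and -2.93. Ermn, a cytoskeletal protein gene used as a supporting-cell marker, was nearer to the enzymes, at -0.69 and -0.07. None of the 16 passed in either smoke comparison (limma), where 2 in GFP+ and 0 in GFP- cells had an unadjusted p under 0.05, and 2 to 3 were at or below the vomeronasal level in each group.

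Other cell types also differed between the fractions, where 15.4% of all genes were lower and 24.2% higher in GFP+ cells of vehicle pools and 14.4% and 18.3% in smoke pools. The 12 immune genes measured had a median of -5.81 in vehicle and -5.51 in smoke pools, with 12 and 10 of 12 lower in GFP+ cells. All 8 microvillar and ionocyte genes were lower under both exposures. The 14 genes measured for Bowman's gland had a median of -1.03 in vehicle and -0.10 in smoke pools. Of these 14, 6 were lower in vehicle pools, among them Ltf, Sox9 and Sox10. Those were also the 3 lower in smoke pools, where Bpifb5, at or below the vomeronasal level in all 4 groups, was called higher. Ltf was also listed for respiratory epithelium and Sox10 for olfactory ensheathing cells, so neither is particular to the gland. In vehicle pools Ltf, at -7.43, lay near the immune genes S100a9 (-7.63) and Ngp (-7.07). Of 12 mature neuron genes, 6 were higher in GFP+ cells of vehicle pools and 4 (Ano2, Slc17a6, Rtp2 and Adcy3) of smoke pools. Omp, the olfactory marker protein gene, did not pass at 0.10 and 0.12, but was above 0 in 8 of 8 pools (exact sign-flip permutation test, two-sided p = 0.00781), and at 18.1 to 18.3 it lay near the highest value of the table. Whether these cells have a part in the enzyme gaps was not tested.

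The enzymes can also be set beside the rest of the biotransformation genes. A list of 132 other genes, of which 119 were measured, held 39 lower and 11 higher in GFP+ cells of vehicle pools and 30 lower and 18 higher in smoke pools. Of all genes, 15.4% were lower and 24.2% higher in vehicle pools, and 14.4% and 18.3% in smoke pools, so that the 18 higher in smoke pools are near the share of all genes. Of 62 phase I genes, 18 were lower and 6 higher in vehicle pools and 11 and 10 in smoke pools, the latter near the shares of all genes. Of 40 phase II genes, 17 were lower and 4 higher, and 15 and 7. Of 17 efflux and cofactor genes, 4 were lower and 1 higher under each exposure. Abcg2, Gsr and Gclc were lower in both, Abcc3 in vehicle and Abcb1a in smoke pools, and Abcc1 and Gss were the higher ones. Abcb1a was at or below the vomeronasal level in every group.

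Several of these genes were much lower in GFP+ cells. Mgst1, a microsomal glutathione S-transferase, had a difference of -3.49 in vehicle and -2.78 in smoke pools, and Aldh2, the mitochondrial acetaldehyde dehydrogenase, of -3.07 and -2.40. Dhrs9, a retinol dehydrogenase, was at or below the vomeronasal level in GFP+ cells, and with those values raised to that level it was at least 2.46-fold lower there in vehicle and at least 1.70-fold lower in smoke pools. Gstp1, a glutathione S-transferase, was at -2.01 and -1.79, and Gsr, the enzyme that regenerates glutathione, at -1.90 and -1.58. Against the same direction, Cyp2s1 was higher in GFP+ cells by 0.84 and 0.58, and Cyp26b1, which clears retinoic acid, by 1.09 and 1.04. None of the 119 passed for smoke in GFP+ or GFP- cells (limma; 10 and 7 had an unadjusted p under 0.05), and 31 of them lay below 0 in GFP+ cells, against 51.1% of all genes, and 68 in GFP- cells, against 47.6%. Nqo1, an inducible quinone reductase, had differences of 0.56 (adjusted p = 0.210) and 0.53 (adjusted p = 0.276).

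**Figure D5:**
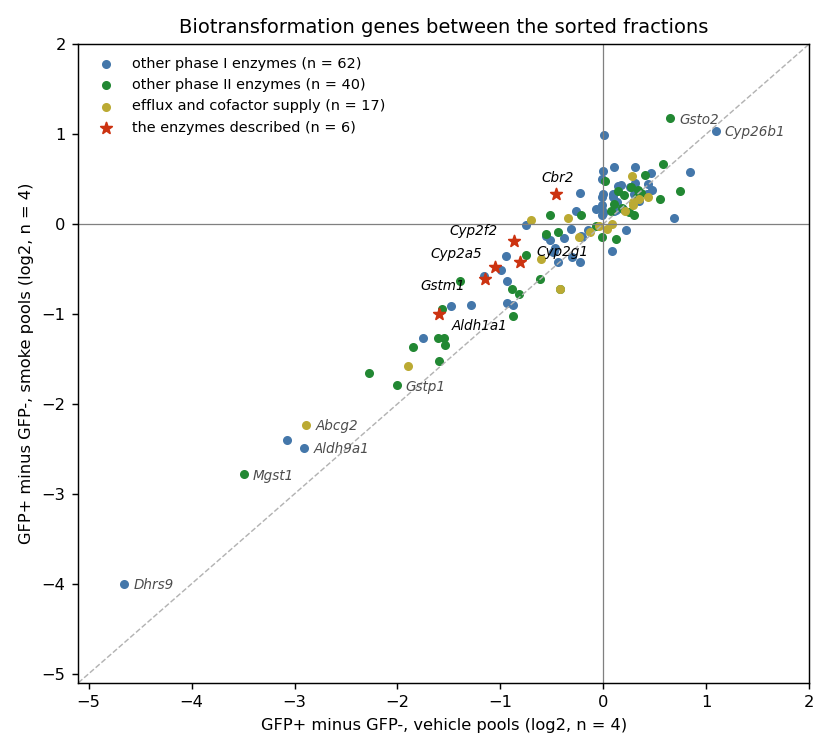
GFP+ minus GFP- difference (log2) in vehicle pools (horizontal) against smoke pools (vertical) for 119 other biotransformation genes and the 6 enzymes (stars); the dashed line marks equal differences. The stars lie above the line. Genes at or below the vomeronasal level in a fraction, such as Dhrs9, Aldh9a1 and Abcg2 in GFP+ cells, are drawn at their deposited values, which give no size for the difference.

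Of the 15 Cyp2 genes on chromosome 7, 6 were above the vomeronasal level in all 4 groups. In gene order these were Cyp2s1, Cyp2a4, Cyp2b23, Cyp2g1, Cyp2a5 and Cyp2f2. Cyp2a4 differed between GFP+ and GFP- cells by -0.95 in vehicle pools (adjusted p = 0.00894) and by -0.36 in smoke pools (adjusted p = 0.305). These values may not be separate from those of the near-identical Cyp2a5. Neighbours on the chromosome did not all share a direction, since Cyp2s1 was higher by 0.84 (adjusted p = 0.000331).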

How the data were processed

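RNA of 2 sorted fractions from 8 pools was hybridised to 16 Clariom S arrays, 4 a group. The values are the authors' deposited log2 values, made with Affymetrix Expression Console per the submitters' processing notes; its version, algorithm and annotation: not given in the sources used here. They ran from 2.29 to 18.6. Of 28846 rows, 19572 probe sets carried 1 gene symbol, and the one with the highest mean stood for each of 19505 genes.

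Differences were tested with limma 3.58.1 under R 4.3.3 (lmFit, eBayes) on all 16 arrays with 4 group means, two-sided, with Benjamini-Hochberg adjustment over all genes at 0.05. The test was checked on simulated data. Fractions of a pool share mice: 24 mice made 8 pools of 3 for 16 arrays. Their residuals correlated at 0.22, 0.091, 0.0928 and 0.134 in smoke and 0.214, 0.0822, 0.0453 and 0.196 in vehicle pools, and the block is given where it changed a call. Alternatives were leaving out arrays or pools, quantile normalization, median centring, leaving out dim genes, separate probe sets, another prior, covariates and blocks. The members and lists were chosen with earlier results of these data known. By rule, the members were always named, and up to 5 genes of a list in each direction by smallest p; the text names some of these. Likeness used the 10 highest correlations among genes above the vomeronasal level in a group. Promoters, names and gene order came from RefSeq (GRCm38.p6). Ugt2a1 and Por are not analysed here. Figures used Python 3.11.15 and matplotlib 3.10.9. The number of arrays limits the precision.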

Additional observations from a re-analysis of the deposited data

Results flagged for a closer look

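For Cbr2 the gap between fractions (GFP+ minus GFP-) had opposite signs in the 2 exposures. It was below 0 in 4 of 4 vehicle pools and above 0 in 4 of 4 smoke pools. The difference of the mean gaps was 0.79, and the limma test of the same difference gave an adjusted p of 0.860. Such a split of signs fixes the exact permutation test at p = 0.0286 (two-sided), the smallest that 4 pools against 4 allow. That p therefore adds nothing to the flag. Gaps below 0 in all vehicle and above 0 in all smoke pools were found in 0.22% of genes.

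Of 36 groups of 4 values examined for a sample far from the others, 2 held one, where chance alone marks about 1 in 20. Cyp2f2 was 14.3 in GFP- cells of smoke pool 4, while smoke pools 1 to 3 lay at 13.75, 13.70 and 13.68. Aldh1a1 was 9.34 in GFP- cells of vehicle pool 2, while the other 3 vehicle pools lay at 9.71 to 9.78.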

How the results depend on the processing

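The 5 enzyme calls in vehicle pools were kept in 16 of 16 fits that left out 1 array, and none of the 6 enzymes was called for smoke or for the difference of smoke effects under any alternative (0 of 498 results). Over the fits that left out 1 array, 25 to 37 genes were called for the difference of smoke effects (34 with all arrays), 13 to 28 for smoke in GFP- cells (25), 14 to 27 in GFP+ cells (21), 4898 to 6474 for the sort in smoke pools (6373) and 6601 to 7818 in vehicle pools (7726). Enzymes called in the smoke-pool sort ranged from 1 to 4, and those in vehicle pools stayed at 5. Over these fits the GFP- smoke difference crossed 0 for Cyp2a5 (-0.15 to 0.076), Cyp2g1 (-0.048 to 0.14), Gstm1 (-0.053 to 0.14) and Cbr2 (-0.33 to 0.024), as did the smoke-pool sort of Cyp2f2 (-0.42 to 0.042).

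Centring arrays on their medians raised GFP+ against GFP- by 0.34 in vehicle and 0.32 in smoke pools, called 15086 and 14268 genes and turned Cyp2f2 to 0.14 in smoke pools. Quantile normalization put the GFP- smoke difference of Cyp2g1 at -0.000685. The 8 GFP- arrays alone called 8 genes for smoke. Without the replicate 1 pools, 14 genes were called for smoke in GFP- cells, 1 enzyme in the smoke-pool sort, and Cyp2f2 there was 0.0094.

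Without smoke pools 2 and 4, 9 genes were called for the difference of smoke effects, 7 for smoke in GFP- cells, 5 in GFP+ cells and 3579 for the smoke-pool sort, where 4 enzymes passed. Cyp2f2 was then -0.047 in GFP+ cells, and Cyp2g1 -0.13 and Gstm1 -0.11 in GFP- cells.

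With the supporting-cell marker mean as covariate, 476 genes and 0 enzymes were called in vehicle pools, 1130 genes in smoke pools and 22 for the difference of smoke effects. The vehicle sort turned to 0.75 for Cyp2g1, 1.11 for Cyp2a5, 1.53 for Cyp2f2, 0.90 for Gstm1 and 1.97 for Cbr2 (median 1.00), and the smoke-pool sort to 0.75, 1.15, 1.63 and 0.93 for the first 4 (median 1.04). GFP- smoke differences turned to 0.18 for Cyp2a5, 0.025 for Cyp2f2 and 0.091 for Cbr2. The Sec14l3 and Ermn covariate, added after seeing the data, called 14 genes for the difference of smoke effects and 5 enzymes in the smoke-pool sort. It turned the difference of smoke effects to -0.16 for Cyp2g1, -0.16 for Cyp2a5, -0.12 for Cyp2f2, -0.12 for Gstm1 and -0.11 for Cbr2, and GFP- smoke differences to 0.28 for Cyp2a5, 0.13 for Cyp2f2 and 0.23 for Cbr2. Cbr2 was then 0.041 in the vehicle and -0.069 in the smoke-pool sort. The cause of these shifts was not tested.

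With the pool as a fixed block, 4 enzymes were called in the smoke-pool sort and 6 in the vehicle sort, and no other enzyme call changed. The labels do not say what a replicate number shares across exposures. The Y-linked mean followed the number in both, lowest in replicate 1, highest in replicate 3 and between these in replicates 2 and 4. Residuals of same-numbered arrays correlated at 0.139, 0.0767, 0.151 and 0.198 in GFP+ and 0.177, -0.0706, 0.104 and -0.0841 in GFP- cells. Not every pair exceeded 0.1, so the numbers were not used as pairs, though this cut does not address the Y-linked level. A block on them left 2 genes (25 without it) for smoke in GFP- cells and 15 (21) in GFP+ cells, and 0 enzymes.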

Other observations

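Genes of the wider list that were at or below the vomeronasal level in all 4 groups gave part of its calls. In smoke pools Gsto2 was 1.17 and Ces1f 0.99 higher in GFP+ than in GFP- cells, and both lay at or below that level in every group.

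S100a5, which drives the reporter, had smoke differences of 0.56 in GFP+ cells (limma, adjusted p = 0.364) and 0.62 in GFP- cells (adjusted p = 0.179). Gpx6, a glutathione peroxidase of the olfactory mucosa, had a smoke difference of -0.64 in GFP- cells (adjusted p = 0.876) and 0.31 in GFP+ cells (adjusted p = 0.999). Gclc, a subunit of the enzyme that makes the glutathione precursor, had one of 0.36 in GFP+ cells (adjusted p = 0.864).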
